A study of Mus musculus with 12 samples.

Results

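The comparison described here sets 5 RNA-sequencing libraries from Sik-targeted lung tumour cells of mice against 4 libraries from KT tumour cells, that is 9 of the 12 libraries in the series. Members were chosen by their titles: the 4 KT samples, and the 3 sgSik1 and 2 sgSik1-3 samples, which share a single genotype label and are pooled under it. All genes of the table were carried through, and 13575 of 30743 had enough counts to be tested. The remaining 3 libraries, KT tumours with floxed Lkb1 (KT;Lkb1f/f), entered the fit and are used where a difference from the Sik-targeted cells is described.

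All mice were on a mixed BL6/129 background and all tumours carried KT, a genotype that the labels do not spell out. The Sik-targeted tumours also carried H11LSL-Cas9, a Cas9 gene that Cre switches on, and guide RNAs against Sik1 (sgSik1) or, by the title, Sik1-3 (sgSik1-3, a range that the labels do not explain). Cas9 cuts differ from cell to cell and can leave alleles intact, and read counts over whole genes do not show editing. Lentiviral Cre is named in alternative sample names of KT replicates 2 to 4 but not of replicate 1. Sorting excluded cells that stained for leukocyte (CD45), endothelial (CD31), macrophage (F4/80) or erythroid (Ter119) surface markers. Where nothing states that replicates came from separate animals, p values measure only the spread between these libraries, which may be technical.

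Salt-inducible kinases (SIKs) are switched on by the tumour suppressor kinase LKB1. They phosphorylate the CRTC coactivators and the class IIa histone deacetylases and so hold both outside the nucleus. Without SIK activity CRTCs enter the nucleus, join the transcription factor CREB at cyclic AMP response elements and raise CREB target genes, and in lung tumours SIKs are known as the LKB1 targets that restrain growth.

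The letters of the element itself were looked up first, because CREB targets are the genes this pathway is known to reach. The element searched was TGACGTCA, which reads the same on both strands, together with its shorter core TGACG, which lies inside it. On the other strand the core reads CGTCA. In RefSeq promoter windows of GRCm38.p6, which run from 250 bases before to 50 bases after a gene's start, 22 of the 29 genes listed as CREB and CRTC targets were found. The windows printed are those of the NR4A nuclear receptor genes, whose windows each held 4 copies of the core and no full element, and Areg and Dusp1, the 2 risen targets of the list with a full element, at -61 and -143 from the start. Capitals mark the full element or the core. The windows are chr15:101266596-101266895 (plus strand) for Nr4a1, chr2:57123954-57124253 (minus) for Nr4a2, chr4:48045055-48045354 (plus) for Nr4a3, chr5:91139349-91139648 (plus) for Areg and chr17:26508423-26508722 (minus) for Dusp1.
Nr4a1: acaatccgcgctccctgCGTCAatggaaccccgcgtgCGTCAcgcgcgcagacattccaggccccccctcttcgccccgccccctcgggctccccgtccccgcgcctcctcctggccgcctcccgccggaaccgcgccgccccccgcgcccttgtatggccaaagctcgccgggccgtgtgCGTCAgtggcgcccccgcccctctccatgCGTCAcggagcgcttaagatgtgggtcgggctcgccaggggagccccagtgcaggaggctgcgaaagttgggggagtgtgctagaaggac
Nr4a2: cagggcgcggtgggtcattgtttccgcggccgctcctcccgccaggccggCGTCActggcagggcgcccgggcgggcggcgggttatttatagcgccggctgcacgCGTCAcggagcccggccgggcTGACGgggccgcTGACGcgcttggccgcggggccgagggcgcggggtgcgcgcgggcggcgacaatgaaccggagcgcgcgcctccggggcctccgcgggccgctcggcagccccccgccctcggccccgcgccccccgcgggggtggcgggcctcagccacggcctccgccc
Nr4a3: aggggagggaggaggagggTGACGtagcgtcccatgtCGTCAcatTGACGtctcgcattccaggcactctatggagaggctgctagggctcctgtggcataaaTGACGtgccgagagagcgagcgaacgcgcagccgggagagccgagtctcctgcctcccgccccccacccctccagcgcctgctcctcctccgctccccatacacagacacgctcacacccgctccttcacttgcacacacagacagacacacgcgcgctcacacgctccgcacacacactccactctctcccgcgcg
Areg: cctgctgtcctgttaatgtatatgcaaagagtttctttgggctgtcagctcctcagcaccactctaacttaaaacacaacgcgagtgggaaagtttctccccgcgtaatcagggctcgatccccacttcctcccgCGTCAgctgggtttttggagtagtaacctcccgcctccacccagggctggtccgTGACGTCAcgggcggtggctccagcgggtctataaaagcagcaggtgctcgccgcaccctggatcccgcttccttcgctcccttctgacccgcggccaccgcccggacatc
Dusp1: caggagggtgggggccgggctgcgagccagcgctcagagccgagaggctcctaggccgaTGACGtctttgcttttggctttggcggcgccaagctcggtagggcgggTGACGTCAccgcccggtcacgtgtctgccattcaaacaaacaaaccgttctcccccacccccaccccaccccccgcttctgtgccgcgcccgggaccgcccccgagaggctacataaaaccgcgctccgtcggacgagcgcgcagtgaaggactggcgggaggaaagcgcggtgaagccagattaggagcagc

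The full element was then counted over all genes that rose or fell in the Sik-targeted cells. Each gene with a window was counted once, and held the element if any of its windows did. By that count 19 of 562 risen genes held it (3.38%, exact 95% interval 2.05 to 5.23). So did 11 of 555 fallen genes (1.98%) and 338 of 9391 tested genes (3.6%). The core stood in 29.9% of risen, 26.1% of fallen and 34.8% of all tested genes with a window. Counted by window instead, 1.79% of all 32851 promoters of this length, tested or not, held the full element and 20.8% the core. A gene can have several windows, so shares by window and by gene cannot be set against each other. By gene again, the share of risen genes with the full element was 5.58% without KT replicate 3. It was 5.76% of 191 genes with sgSik1 as the only Sik-targeted group and 9.09% of 22 genes without KT replicates 2 and 3. Within the CREB list, 10 of the 11 risen genes with a promoter held the core, against 14 of the 19 tested members with one. A match describes letters in a short window and is neither a binding site nor a cause.

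The libraries held 3847760 to 8101304 counts in KT and 5666378 to 13955181 in the Sik-targeted group. KT replicates 2 and 3 stood apart: 23582 and 23747 genes had counts in them, against 14283 to 16533 in the other 10 libraries, and 998 and 1063 of 1428 olfactory and vomeronasal receptor genes were counted in them, against 14 to 58. The 4 most abundant transcripts took 18.4 to 48.1% of the counts in KT and 36.5 to 74.2% in Sik-targeted libraries. Y-linked counts (4 genes, summed) were 70.4 and 49.2 CPM in the sgSik1-3 libraries and at most 1.71 CPM in the KT and sgSik1 libraries. Sex thus differs between the guide titles, and between sgSik1-3 and KT. The pooled comparison with KT is in part also one of sex. The epithelial marker Epcam stood at 123 to 192 CPM in KT and 159 to 388 in Sik-targeted libraries and the lung factor Nkx2-1 at 172 to 252 and 137 to 410, while the leukocyte marker Ptprc stood at 1.06 to 7.89 and 0 to 0.724. Levels are in CPM, that is counts scaled to a common effective library size, given in the order KT replicates 1 to 4, sgSik1 replicates 1 to 3 and sgSik1-3 replicates 1 and 2.

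Sik-targeted and KT cells differed broadly in expression. Only the Sik-targeted titles name Cas9 and guides, and no library had Cas9 with a control guide. Effects of Cas9 or its cuts thus cannot be told apart from those of Sik targeting. By edgeR's quasi-likelihood test, with a Benjamini-Hochberg adjusted p under 0.05, 1679 of 13575 genes (12.4%) differed between Sik-targeted and KT cells: 789 rose (5.81%) and 890 fell (6.56%). The change was over 4-fold for 1088 of them (8.01% of tested genes), 404 up (2.98%) and 684 down (5.04%). In 1352 of the 1679 (9.96% of tested genes) no Sik-targeted library overlapped any KT library. That separation was seen for 2187 (16.1%) of all tested genes, with the Sik-targeted libraries higher in 7.32% and lower in 8.79%. The median log2 change over all tested genes was -0.03. Without KT replicates 2 and 3 the test called 98 genes, 37 higher and 61 lower, of which 36 and 61 were also called with all libraries. Of the 789 risen and 890 fallen genes, 789 and 753 could be tested there, and all of them kept their direction. No gene named below as having risen or fallen changed direction in any alternative that tested it.

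**Figure D1:**
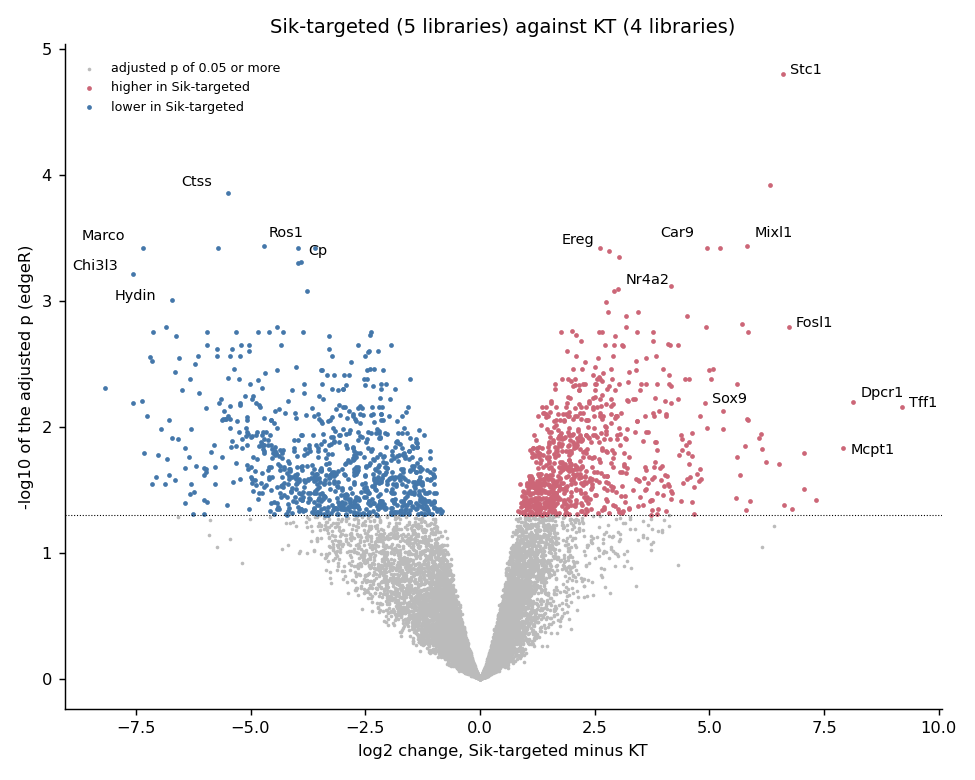
Each point is a tested gene, placed by its log2 change (x axis, Sik-targeted minus KT) and the -log10 of its edgeR adjusted p (y axis); the dotted line is the threshold of 0.05. The 789 genes that rose reach the trefoil factor Tff1 at 9.19, and Stc1 at 6.60 has the smallest adjusted p.

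The kinases and their direct effectors moved in different directions. Of 18 listed genes, all tested, 3 rose and 2 fell (median 0.25). Sik1 RNA rose, with 38.2, 48.5, 48 and 59.6 CPM in KT and 514, 112, 148, 105 and 266 CPM in Sik-targeted libraries, a log2 change of 2.24 ± 0.45 (SE, adjusted p = 0.0078). Sik3 fell by 1.33 on the log2 scale (adjusted p = 0.0209) and Sik2 rose by 1.22 (adjusted p = 0.0328). Hdac9, a class IIa histone deacetylase and so a SIK substrate, fell from 3.78, 7.74, 8.11 and 12.7 CPM to 1.42, 1.99, 0.164, 0.236 and 0.362 CPM (log2 change -3.32 ± 0.80, adjusted p = 0.0165), with no overlap. Hdac4 of the same class rose by 1.53 (adjusted p = 0.0437). The coactivators Crtc1, Crtc2 and Crtc3 changed by 0.65, -0.35 and 0.94 and did not pass (adjusted p = 0.349, 0.41 and 0.0903). Hdac4 lost its call in 7 of the 12 fits that each left out 1 library (adjusted p up to 0.134, without KT replicate 2), Sik2 in 8 (up to 0.0968, without KT replicate 3) and Sik3 in 4 (up to 0.0594, without KT replicate 3).

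CREB targets rose in 14 of 26 tested cases. Of 29 listed genes these 26 were tested, 0 fell and 12 did not pass, with a median log2 change of 1.66 against -0.03 over all genes. Nr4a2, an orphan nuclear receptor and immediate target of CREB, stood at 6.92, 4.77, 7.71 and 13.2 CPM in KT and at 56.6, 119, 49.6, 46.3 and 51.9 CPM in the Sik-targeted libraries. Every Sik-targeted library was thus over 3 times the highest KT library, and the log2 change was 3.01 ± 0.39 (adjusted p = 0.000805). Its relative Nr4a1 stood at 38.7, 40.6, 33.3 and 88.3 CPM against 973, 236, 252, 138 and 220 CPM (2.86 ± 0.56, adjusted p = 0.0068), with sgSik1 replicate 1 the highest. For Nr4a3 the groups overlapped, since sgSik1-3 replicate 1 had 4.25 CPM and KT replicate 4 had 8.49 (2.62 ± 0.65, adjusted p = 0.019). The phosphodiesterase genes Pde4b and Pde4d, whose enzymes break down cyclic AMP, rose by 2.65 ± 0.39 and 1.22 ± 0.28. Pde4b stood at 8.5, 38.7, 25 and 18.5 CPM in KT against 114 to 188 CPM in the 5 Sik-targeted libraries. Arc, an activity-regulated gene, rose by 5.81 ± 1.18 with levels that spread from 23.9 to 1376 CPM among Sik-targeted libraries and from 4.72 to 12.3 CPM in KT.

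Without KT replicates 2 and 3, 3 of the 26 CREB targets passed with a median of 1.78, and without sgSik1 replicate 1, 14 passed with a median of 1.21. Leaving out KT replicate 3 left 9 risen. Nr4a3 lost its call without KT replicate 1, 2 or 3 (adjusted p = 0.0575, 0.0737 and 0.0689) and Pde4d without KT replicate 3 (0.0514). A separate list of cyclic AMP feedback genes had 13 tested members: Pde4b, Pde4d, Pde8a and Pde10a rose, Pkia, which encodes an inhibitor of protein kinase A, fell and the median was 0.38. Pde8a lost its call in 8 of 12 fits without 1 library (up to 0.132, without KT replicate 3), Pkia in 7 (up to 0.0788, without KT replicate 3) and Pde10a in 5 (up to 0.0748, without KT replicate 2).

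Several immediate early genes and AP-1 subunits rose as well. Of 11 tested AP-1 genes 7 rose and 1 fell (Batf, a leukocyte member), with a median of 1.66. Fosl1, which encodes the FOS-family protein FRA1, was close to absent in KT at 0.157, 0.447, 0.241 and 0.424 CPM and stood at 122, 5.69, 20.3, 13.5 and 17.6 CPM in Sik-targeted libraries (6.72 ± 0.95, adjusted p = 0.00162). Junb rose by 2.55 ± 0.57, Fosb by 1.98 ± 0.47, Fosl2 by 1.76 ± 0.41 and Fos by 1.66 ± 0.46, while Atf3 did not pass (0.91, adjusted p = 0.155). The genes known to respond to enzymatic dissociation of tissue moved with these: of 23 tested, 11 rose and 0 fell (median 1.50), and their summed level was 2839 to 6566 CPM in KT and 11069 to 30102 CPM in Sik-targeted libraries. Fos, Fosb, Junb, Egr1 and Dusp1 are on both this list and the CREB list, so their rise belongs to both, and the part of dissociation in it was not tested. The heat shock genes Hspa1a and Hspa1b, which also answer to dissociation, had log2 changes of 0.09 and -0.07 (adjusted p = 0.917 and 0.954), but of 15 tested heat shock chaperones and cofactors 2 rose with no overlap, Dnajb1 (2.18 ± 0.48, adjusted p = 0.0116) and Bag3 (1.66 ± 0.48, adjusted p = 0.0352). Dnajb1 lost its call without KT replicate 2 (0.0501) and Bag3 in 5 fits (up to 0.126, without KT replicate 2). Fos lost its call in 6 of 12 fits without 1 library (up to 0.108, without KT replicate 3). Fosb (0.0644) lost it without KT replicate 3, and Junb (0.0504) and Fosl2 (0.0553) without KT replicate 2. Egr1 lost its call in 2 fits (up to 0.0688, without KT replicate 3). Leaving out KT replicate 2 left 2 AP-1 genes risen and 6 of the dissociation list.

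Some ligands of the EGF receptor rose beside them. Of 7 tested ligand genes 3 rose and 0 fell (median 1.49). Amphiregulin, encoded by Areg, stood at 70.5, 195, 92.7 and 135 CPM in KT and at 661, 437, 558, 484 and 702 CPM in Sik-targeted libraries (2.20 ± 0.34, adjusted p = 0.00207). Epiregulin, encoded by Ereg, rose from 35.9, 55.7, 36.5 and 49.2 CPM to 170, 362, 428, 286 and 309 CPM (2.81 ± 0.34, adjusted p = 0.000404). The third, Hbegf, rose by 1.55 ± 0.30 (adjusted p = 0.00624). All 3 were separated from KT in every library and kept their calls in each fit that left out 1 library.

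Genes that report output of the RAS-MAPK pathway rose in most cases and fell in a few. Of 19 tested, 11 rose and 3 fell, with a median of 1.51. Fosl1, counted above with the AP-1 genes, is also on this list. The dual-specificity phosphatases that shut off ERK rose: Dusp6 went from 55.1, 44.1, 34.7 and 90 CPM to 611, 204, 255, 282 and 299 CPM (2.56 ± 0.42, adjusted p = 0.00281), Dusp5 rose by 2.96 ± 0.61 and Dusp4 by 2.15 ± 0.40. Spry4, another feedback inhibitor, rose by 1.90 ± 0.37. In contrast Spry1 fell by 1.09 on the log2 scale (adjusted p = 0.0157) and Etv5, an ETS factor that is also part of the alveolar type 2 programme, fell from 327, 155, 166 and 325 CPM to 51.4, 91.1, 45.5, 49.1 and 44.5 CPM (-2.11 ± 0.36, adjusted p = 0.00351). Spry2 did not pass (-0.20, adjusted p = 0.803). Among other members Phlda1 rose by 2.50 ± 0.42, Ier3 by 2.54 ± 0.46 and the cyclin gene Ccnd1 by 1.46 ± 0.38. Spry1 lost its call without KT replicate 2 (0.0526), and Ccnd1 without KT replicate 1 (0.0514), 2 (0.0915) or 3 (0.0881).

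**Figure D2:**
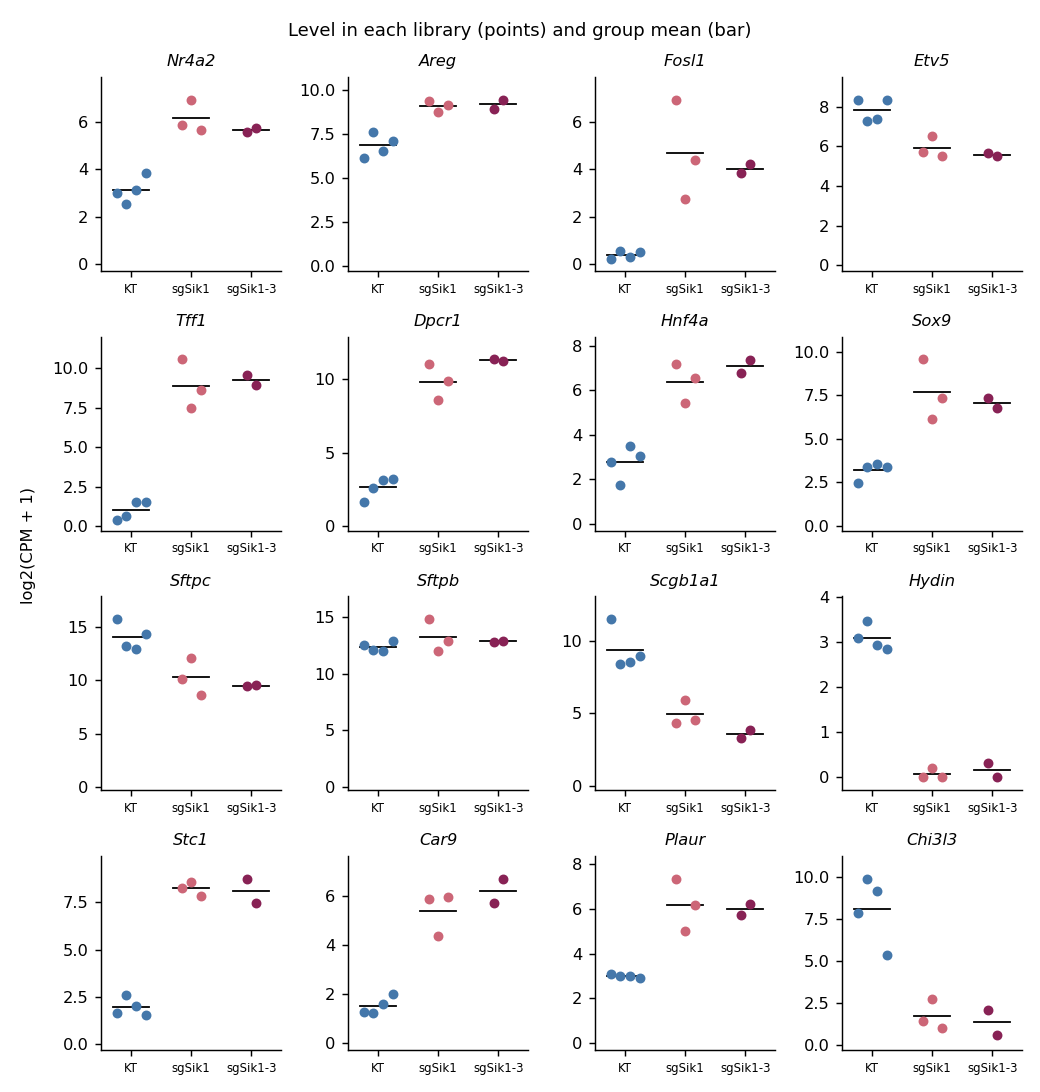
Level of 16 genes as log2(CPM + 1) (y axis) in each KT, sgSik1 and sgSik1-3 library (points), with the group mean as a bar. The Sik-targeted libraries lie above every KT library for Nr4a2, Areg, Fosl1, Tff1, Dpcr1, Hnf4a, Sox9, Stc1, Car9 and Plaur and below for Etv5, Sftpc, Scgb1a1, Hydin and Chi3l3, while for Sftpb they overlap.

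Some of the largest rises were in genes of stomach and gut epithelium. Of 24 listed gastric and gut genes 17 were tested, 9 rose and 1 fell (Pdzk1ip1), with a median of 2.41. Tff1, a trefoil peptide of the stomach surface, stood at 0.315, 0.521, 1.85 and 1.91 CPM in KT and at 1525, 177, 400, 754 and 482 CPM in Sik-targeted libraries, the largest rise among the named genes (9.19 ± 1.76, adjusted p = 0.0069). Dpcr1, which encodes a mucin-like protein, stood at 2.2, 4.99, 7.95 and 8.28 CPM against 2029, 384, 928, 2565 and 2312 CPM (8.13 ± 1.52, adjusted p = 0.00638). Every Sik-targeted library thus lay above every KT library for both genes. The gut lectin gene Lgals4 rose by 4.10 ± 0.64, villin (Vil1), a component of microvilli, by 4.16 ± 0.76 and cathepsin E (Ctse), an aspartic protease of the stomach, by 4.49 ± 1.01. The intestinal alkaline phosphatase gene Alpi rose by 7.06 ± 1.65. Not all gastric genes followed: Gkn2 did not pass (3.21, adjusted p = 0.115), and Tff2, Tff3 and Gkn3 had 18, 2 and 23 counts over the 4 KT libraries and 11, 1 and 40 over the 5 Sik-targeted libraries, too few to be tested.

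Mucins and secreted proteins rose in part. Of 9 tested mucin genes 3 rose and 0 fell (median -0.12). The airway mucin gene Muc5b stood at 186, 24.1, 78.4 and 44.4 CPM in KT and at 8771, 507, 9078, 324 and 4365 CPM in Sik-targeted libraries, so the 5 libraries differed among themselves by over 20 times (5.79 ± 1.76, adjusted p = 0.0458). Muc3 rose by 4.32 ± 0.82 (adjusted p = 0.00599) and Muc5ac by 3.72 ± 1.16 (adjusted p = 0.0499), while Muc1 did not pass (-0.12, adjusted p = 0.892). Clu, encoding the secreted chaperone clusterin, rose from 655, 365, 379 and 618 CPM to 7594, 1583, 4593, 4799 and 6890 CPM (3.34 ± 0.64, adjusted p = 0.00606). Dmbt1, a secreted scavenger receptor of mucosal epithelia, rose by 6.15 ± 1.41 and F5, which encodes coagulation factor V, by 6.23 ± 1.51.

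Several calls in the last 2 groups depended on single libraries. Muc5b and Muc5ac lost theirs in 8 and 7 of the 12 fits without 1 library (adjusted p up to 0.136 and 0.148, both without KT replicate 2). Ctse lost it without KT replicate 2 (0.0523), Alpi and Dmbt1 without KT replicate 2 (0.062 and 0.0559) or 3 (0.055 and 0.0529), and F5 without KT replicate 1 (0.0511), 2 (0.0621) or 3 (0.055). Tff1, Dpcr1, Lgals4, Vil1, Muc3 and Clu kept theirs in all 12. Leaving out KT replicate 2 left 3 of the 9 risen gastric and gut genes. None of the 9 passed when KT replicates 2 and 3 were left out, and the median of that list was then 2.57.

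Several genes for mast cell and basophil proteases were high. Of 12 listed mast cell and basophil markers, which do not include Mcpt1 or Mcpt2, 4 were tested. Of these 2 rose (Mcpt8 and Tpsab1), 1 fell (Hdc) and 1 did not pass. Mcpt1 stood at 2.36, 2.53, 14.8 and 5.94 CPM in KT and at 975, 745, 2795, 1957 and 1344 CPM in Sik-targeted libraries (7.91 ± 1.81, adjusted p = 0.0148), Mcpt2 rose by 7.06 ± 1.94, the basophil protease gene Mcpt8 by 6.52 ± 1.59 and the tryptase gene Tpsab1 by 4.79 ± 1.20. Among listed members too low to be tested, Cpa3 had 37 counts in KT and 0 in the Sik-targeted libraries, and Fcer1a had 5 and 0. The leukocyte marker Ptprc stood at 0 to 0.724 CPM in the Sik-targeted libraries. Which cells the protease RNA came from was not tested. Hdc, which makes histamine, fell by 3.83 on the log2 scale (adjusted p = 0.00535). These protease genes form a family of close copies, so reads may be divided among them. Without KT replicate 2 the call was lost for Mcpt1 (0.0559), Mcpt2 (0.105), Mcpt8 (0.0707) and Tpsab1 (0.0666), and the last 3 also lost it in other fits.

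Transcription factors of gut and distal lung changed in both directions. Of 23 tested, 6 rose and 2 fell (median 0.39). Sox9, a factor of distal lung progenitors and gut crypts, stood at 4.41, 9.23, 10.8 and 9.55 CPM in KT and at 767, 70.2, 161, 165 and 109 CPM in Sik-targeted libraries (4.89 ± 0.92, adjusted p = 0.00652). Hnf4a, a master factor of gut and liver epithelium, went from 5.98, 2.38, 10.4 and 7.22 CPM to 145, 41.6, 94, 110 and 165 CPM (4.09 ± 1.10, adjusted p = 0.0283). For both genes every Sik-targeted library lay above every KT library. Foxp1 rose by 1.88 ± 0.37, Klf5 by 1.63 ± 0.30, Elf3 by 2.36 ± 0.50 and Foxa1 by 1.22 ± 0.36, and Elf5 fell by 1.85 on the log2 scale. Nkx2-1, the lung lineage factor, did not pass (0.14 ± 0.35, adjusted p = 0.848), with 172, 252, 242 and 233 CPM against 410, 322, 137, 203 and 163 CPM; nor did Foxa2 (1.09, adjusted p = 0.147), Gata6 (0.55, 0.313) or Cebpa (-0.43, 0.453). Hnf4a, Foxa1 and Elf5 lost their calls in 6, 6 and 5 of the 12 fits without 1 library (adjusted p up to 0.0975, 0.137 and 0.063, without KT replicates 2, 3 and 2).

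The alveolar type 2 (AT2) programme, the surfactant-making state from which these tumours are known to arise, was lower in part. Of 26 tested AT2 genes 12 fell and 1 rose (Il33), with a median of -1.67. Surfactant protein C (Sftpc) stood at 55542, 9517, 7726 and 20268 CPM in KT and at 1135, 4390, 402, 699 and 752 CPM in Sik-targeted libraries, with no overlap (-3.98 ± 0.96, adjusted p = 0.0172). Lysozyme 2 (Lyz2) went from 13349, 4707, 5063 and 9856 CPM to 75.9, 1062, 70.1, 163 and 77.8 CPM (-4.83 ± 0.85, adjusted p = 0.00426). Sftpb did not pass: it stood at 5692, 4388, 3937 and 7399 CPM against 29193, 4015, 7451, 7068 and 7679 CPM (1.05 ± 0.52, adjusted p = 0.202). The lamellar body gene Lamp3 fell by 2.70 on the log2 scale and the chemokine gene Cxcl15 by 3.43, whereas the lipid transporter gene Abca3 (-0.68, adjusted p = 0.284), Napsa (-0.39, 0.7) and Sftpa1 (-3.03, 0.0707) did not pass. In bulk libraries fewer AT2-like cells and less RNA of these genes per cell cannot be told apart. Sftpc lost its call without KT replicate 1 (0.0518) or sgSik1 replicate 1 (0.0534). When KT replicates 2 and 3 were left out, 6 of the 26 fell and the median was -1.95. Il33 lost its call in 6 fits without 1 library (up to 0.123, without KT replicate 2).

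Lyz2 is also made by macrophages, and macrophage markers moved the same way. Of 21 listed 16 were tested, 12 fell and 0 rose (median -5.13), and their summed level was 150.5 to 1345 CPM in KT and 34.4 to 59.4 CPM in Sik-targeted libraries. Chi3l3, a chitinase-like protein of macrophages, stood at 234, 953, 580 and 39.9 CPM in KT and at 1.71, 5.55, 0.982, 3.31 and 0.543 CPM in Sik-targeted libraries (-7.55 ± 0.92, adjusted p = 0.00061). The receptor gene Marco fell by 7.35 on the log2 scale, Ctss, which encodes a lysosomal protease, by 5.50 and Csf1r by 3.44. Marco had 461 counts in KT and 2 in the Sik-targeted libraries. KT replicates 2 and 3, which stood apart in gene number, had the highest macrophage sums. Without them 4 of 15 tested markers fell and the median was -4.55. The part of macrophage RNA in the lower Lyz2 was not tested.

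Alveolar type 1 genes, which mark the flat gas-exchange cells, gave no common direction. Of 17 tested 2 rose and 2 fell (median -0.77). Rtkn2 fell by 3.21 on the log2 scale and Cav1 by 2.56, while Gprc5a rose by 1.31 ± 0.34 and Vegfa by 1.48 ± 0.40. Ager, Hopx and Pdpn did not pass (-0.86, -0.31 and -1.55, adjusted p = 0.321, 0.731 and 0.14). Gprc5a lost its call without KT replicate 1 (0.0567), 2 (0.0932) or 3 (0.0904), and Vegfa in 5 fits (up to 0.0752, without KT replicate 1).

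Airway cell markers mostly fell. Of 11 tested club cell markers 7 fell and 1 rose, the mucin gene Muc5b already described, with a median of -3.49. Scgb1a1, the secretoglobin that defines club cells, stood at 2871, 334, 362 and 489 CPM in KT and at 19.3, 59.8, 21.9, 8.74 and 13.4 CPM in Sik-targeted libraries (-5.36 ± 0.88, adjusted p = 0.00346). Cbr2, a carbonyl reductase, fell by 5.50 on the log2 scale and Cyp2f2, a cytochrome P450 of club cells, by 2.32. All 11 tested ciliated cell markers fell (median -4.18). Hydin, a protein of motile cilia, had 7.55, 10.1, 6.66 and 6.15 CPM in KT and 2 counts in all 5 Sik-targeted libraries, 1 each in sgSik1 replicate 2 and sgSik1-3 replicate 1 (-6.70 ± 0.90, adjusted p = 0.000986). Foxj1, the factor that drives cilia formation, fell from 14.3, 3.87, 2.89 and 3.18 CPM to 0.284, 1.14, 0.273, 0 and 0 CPM (-4.00 ± 0.83, adjusted p = 0.00848). All ciliated markers together came to 43.9 to 88.7 CPM in KT and 2.36 to 9.54 CPM in Sik-targeted libraries, so they were rare in both groups. Without KT replicates 2 and 3, 3 club and 2 of 8 tested ciliated markers fell. Leaving out KT replicate 1 left 4 club and 6 ciliated markers fallen.

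Most tested keratins rose, as did some other epithelial genes, while Epcam and Cdh1 did not pass. Of 8 tested keratins 6 rose and 0 fell (median 2.07), and of 21 epithelial identity genes 7 rose, 0 fell and 14 did not pass (median 1.00). Krt7, Krt8, Krt18 and Krt19 are on both lists, so their rise is counted in both. Leaving out KT replicate 2 left 2 risen in each list, and none passed in either without KT replicates 2 and 3. Krt18, a keratin of simple epithelia, went from 154, 114, 114 and 146 CPM to 778, 279, 377, 400 and 835 CPM (2.02 ± 0.37, adjusted p = 0.00475). Krt19 rose by 2.71 ± 0.61, Krt7 by 2.13 ± 0.48 and Krt8 by 1.94 ± 0.45, and each had its highest level in sgSik1 replicate 1. For Epcam and the cadherin gene Cdh1 the log2 changes were 0.76 and 0.83 (adjusted p = 0.193 and 0.0894). Of 15 tested claudins and tight junction genes 1 rose, Cldn2 (2.77 ± 0.77). Of 11 tested mesenchymal genes 0 rose and 1 fell (Mmp2), and Vim, Zeb1 and Zeb2 had log2 changes of -1.55, -2.42 and -2.37 without passing. Of 15 fibroblast and pericyte markers 5 fell and 1, Tagln, rose (1 fell without KT replicate 4, and Tagln lost its call in 7 fits, up to 0.101), with sums of 58.8 to 589 CPM in KT and 32.3 to 75.9 CPM in Sik-targeted libraries, and their part in the mesenchymal values was not tested. Krt19 and Krt7 lost their calls without KT replicate 2 (0.0532 and 0.0547), Krt8 without KT replicate 2 (0.0559) or 3 (0.053), Cldn2 in 8 and Mmp2 in 9 fits (up to 0.104 and 0.0989, without KT replicate 2 and sgSik1-3 replicate 2).

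Genes of a state known as high plasticity, in which lung tumour cells mix several lineages, rose in part. Of 17 tested, 9 rose and 0 fell, with a median of 1.94, and leaving out KT replicate 2 left 3 risen. Plaur, the urokinase receptor, was steady in KT at 7.55, 7, 7.07 and 6.58 CPM and stood at 159, 31.2, 69.5, 52 and 72.4 CPM in Sik-targeted libraries (3.44 ± 0.48, adjusted p = 0.00123). Lif, a cytokine of the IL-6 family, went from 7.71, 15.6, 22.8 and 20.2 CPM to 492, 62.8, 157, 132 and 184 CPM (3.63 ± 0.60, adjusted p = 0.00282). F3, or tissue factor, which starts coagulation, rose by 2.85 ± 0.49. The integrin gene Itga2 was higher in every Sik-targeted library (169 to 658 CPM against 23 to 65.3 CPM in KT) without passing (3.05 ± 1.04, adjusted p = 0.0707).

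Other genes of the plasminogen system rose beside Plaur. Of 9 tested members 5 rose (3 without KT replicate 3) and 1 fell (Serpinb8, a call lost in 3 fits, up to 0.0517), with a median of 1.40. The protease gene Plau rose by 1.40 ± 0.44 and lost its call in 8 fits without 1 library (up to 0.124, without sgSik1-3 replicate 2). Mmp14, a membrane-bound collagenase, rose by 2.28 ± 0.41. Of 14 tested integrins and laminins 4 rose and 0 fell (Itga3, Itga6, Itgav and Itgb4, median 0.95), and every one of these 4 lost its call in 2 or more such fits.

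Several markers of progression and embryonic genes rose. Of 17 listed, 13 were tested, 7 rose (3 without KT replicate 2) and 1 fell, with a median of 1.88. Mixl1, a homeobox gene of early endoderm, was near absent in KT at 0.944, 0.223, 0.562 and 0.849 CPM and stood at 24.7, 18.9, 51, 64.5 and 13.2 CPM in Sik-targeted libraries (5.83 ± 0.64, adjusted p = 0.000365). Plac8 rose by 5.60 ± 1.00 and Hmga2, a chromatin protein of embryonic tissue and advanced lung tumours, by 2.10 ± 0.59. The receptor kinase gene Ros1 fell from 45, 59, 81.7 and 83.4 CPM to 1.99, 7.26, 8.02, 5.43 and 4.52 CPM (-3.59 ± 0.40, adjusted p = 0.000377). The mesothelial marker Msln rose from 4.88, 8.19, 17.7 and 19.5 CPM to 332, 115, 150, 231 and 274 CPM (4.13 ± 0.65, adjusted p = 0.00224), whereas Upk3b and Wt1, which mark mesothelium more narrowly, each had 1 count in the Sik-targeted libraries. Squamous genes had 6 of 16 tested and 3 risen (Krt14, Sfn and Sprr1a), with the basal keratin gene Krt5 at 0 counts in Sik-targeted libraries and Trp63 not passing (-1.94, adjusted p = 0.221). Neuroendocrine genes had 4 of 14 tested, and 1 rose (Resp18, 5.85 ± 0.87). Hmga2 lost its call in 6 fits without 1 library (up to 0.0834, without KT replicate 4), Krt14 in 5 (up to 0.0977, without KT replicate 3) and Sprr1a in 4 (up to 0.0905, without KT replicate 2).

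**Figure D3:**
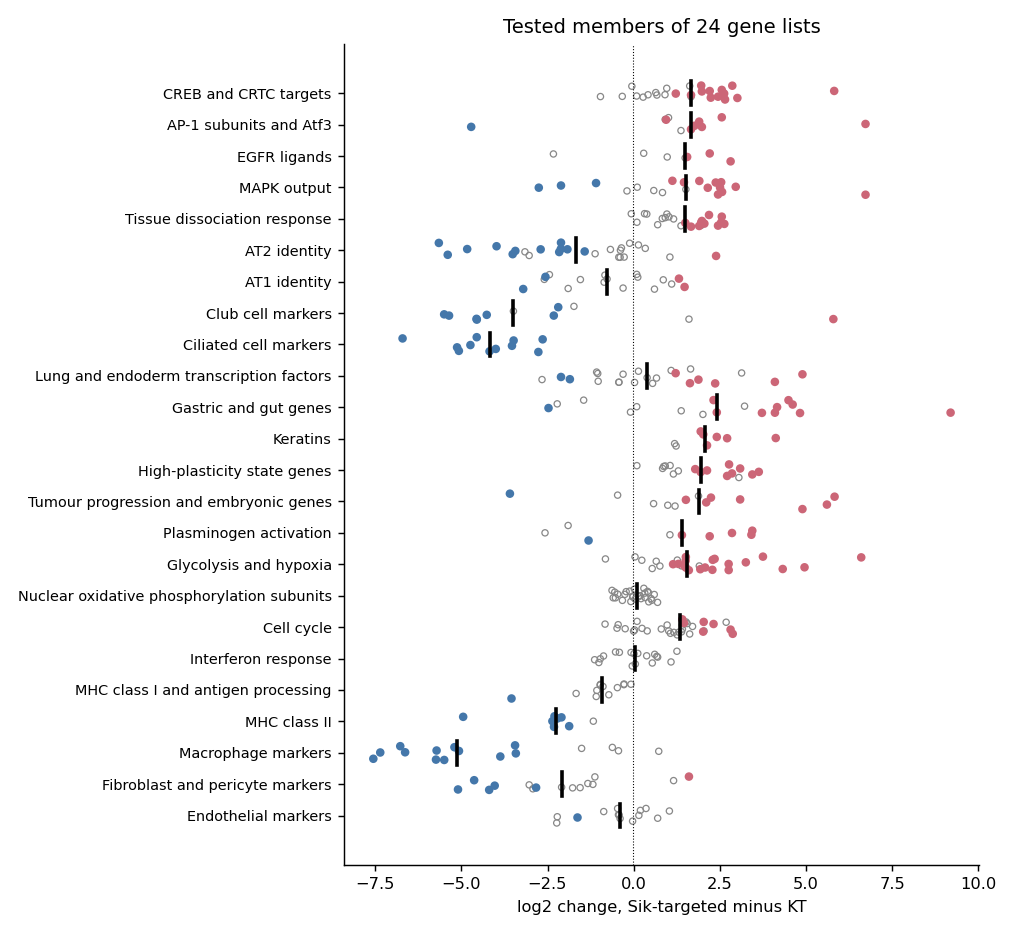
Log2 change (x axis, Sik-targeted minus KT) of each tested member of 24 gene lists (y axis). Filled points passed the test, red higher and blue lower, open points did not, black bars are list medians and the dotted line is the median over all genes, -0.03; glycolysis and hypoxia (19 of 28) and CREB targets (14 of 26) stand to the right, ciliated (11 of 11) and macrophage markers (12 of 16) to the left.

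Most tested glycolysis and hypoxia genes rose. Of 28 tested, 19 rose (10 without KT replicate 2 or 3), 0 fell and 9 did not pass, with a median of 1.56, and none of the lists had a higher count of risen members. Stc1, the glycoprotein hormone stanniocalcin 1, had the smallest adjusted p of all named genes: it stood at 2.2, 4.99, 3.05 and 1.91 CPM in KT and at 302, 384, 230, 426 and 177 CPM in Sik-targeted libraries (6.60 ± 0.52, adjusted p = 1.58e-05). Car9, a carbonic anhydrase that hypoxia is known to induce, went from 1.42, 1.34, 2.01 and 2.97 CPM to 57.7, 19.9, 61.4, 52.2 and 104 CPM (4.95 ± 0.58, adjusted p = 0.000377). The lowest Sik-targeted library was thus over 6 times the highest KT library for Car9, and over 30 times for Stc1. The glucose transporter gene Slc2a1 rose by 2.75 ± 0.61, Pfkp, a phosphofructokinase subunit, by 2.29 ± 0.38, Ndrg1 by 3.25 ± 0.56, Stc2 by 4.32 ± 0.68, and Gapdh, at 256 to 511 CPM in KT and 904 to 2017 CPM in Sik-targeted libraries, by 2.07 ± 0.41. Ldha, which makes lactate, and Hk2, a hexokinase, rose by 1.51 ± 0.36 and 1.14 ± 0.28, and both lost their calls without KT replicate 2 (0.0627 and 0.0534) or 3 (0.0618 and 0.0689). With KT replicates 2 and 3 left out, 3 of the 28 passed and the median was 1.48.

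In other metabolic groups few genes passed. Of 28 nuclear subunits of oxidative phosphorylation and of 28 ribosomal protein genes none passed (medians 0.09 and 0.49), nor did any of 14 genes of the unfolded protein response (median 0.44). Among 25 tested genes of fatty acid and sterol synthesis 1 rose and 4 fell (Scd1, Acaca, Scd2 and Elovl1), with a median of 0.02. Acaca, the first committed enzyme of fatty acid synthesis, went from 73.2, 73.4, 55.5 and 59.8 CPM to 14.5, 24.2, 26.5, 18.9 and 19 CPM (-1.66 ± 0.36, adjusted p = 0.0102), and Scd1, Scd2 and Elovl1 lost their calls in 5, 8 and 6 fits (up to 0.075, 0.131 and 0.118, without KT replicate 1), while Fasn, the next enzyme, did not pass (0.34, adjusted p = 0.759). Of 20 genes of amino acid stress and serine synthesis 1 rose (Atf4, 0.94 ± 0.29, a call lost in 9 fits without 1 library). Some genes of metal binding and transport rose: Mt2 went from 19, 20.3, 17.5 and 34 CPM to 995, 182, 251, 357 and 253 CPM (4.17 ± 0.54, adjusted p = 0.000757) and Mt1 rose by 2.69 ± 0.55, with 3 of 9 tested members of that list up and 1 down (Slc39a8). Of 7 tested carbonic anhydrases Car9 and Car12 rose and Car4 and Car8 fell, with the calls of Car12 and Car4 each lost in 3 fits (up to 0.0655 and 0.0609).

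A minority of cell cycle genes rose. Of 32 tested 7 rose, 0 fell and 25 did not pass, with a median of 1.35. The number risen was 1 without KT replicate 2 or 3, 11 without Lkb1-deleted replicate 1 and 0 without KT replicates 2 and 3 together. Mki67, the proliferation marker, stood at 24.1, 7.37, 24.6 and 17.2 CPM in KT and at 40.4, 48.3, 84.4, 130 and 66.2 CPM in Sik-targeted libraries (2.01 ± 0.44, adjusted p = 0.0115). Top2a rose by 2.03 ± 0.55 and Foxm1 by 1.41 ± 0.38, and both lost their calls in 5 fits without 1 library (up to 0.0773 and 0.105). Cdkn1a, the inhibitor p21, rose as well, from 88.1, 140, 103 and 201 CPM to 3151, 334, 618, 254 and 509 CPM (2.87 ± 0.68, adjusted p = 0.0152), and lost its call without KT replicate 2 (0.0542) or 3 (0.0577). Cdk1 and Ccnb1 did not pass (1.52 and 1.62, adjusted p = 0.0624 and 0.209). In the BCL2 family, which controls cell death, 1 of 13 tested genes rose (Bid) and 2 fell (Bcl2a1a and Bmf), with the call of Bid lost without KT replicate 2 (0.0655) and that of Bmf without KT replicate 1 (0.0615).

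Genes of antigen presentation fell mainly in class II. Of 8 tested MHC class II genes 7 fell and 0 rose, with a median of -2.26, but none fell in the fits without KT replicate 1, sgSik1 replicate 3 or sgSik1-3 replicate 2. H2-Aa went from 760, 242, 308 and 459 CPM to 53.1, 255, 59.6, 24.8 and 38.5 CPM (-2.36 ± 0.65, adjusted p = 0.0295), and sgSik1 replicate 2 lay inside the KT range. Cd74, the invariant chain, did not pass (-1.17, adjusted p = 0.164). H2-Aa lost its call in 7 of the 12 fits (up to 0.0804, without sgSik1 replicate 1), and without KT replicates 2 and 3 none of the 8 passed (median -2.82). Macrophage markers, whose cells carry class II, fell in the same libraries as given above, and their part here was not tested. Of 12 class I and antigen processing genes 1 fell (Nlrc5, a call lost in 5 fits, up to 0.0889), and H2-K1 and B2m had -0.97 and -1.09 without passing. None of 18 interferon response genes passed (median 0.03).

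Inflammatory feedback rose in a few genes. Of 19 tested NF-kB and chemokine genes 3 rose (Nfkbia, Tnfaip3 and Tnf) and 3 fell (Csf1, Il1b and Lcn2), with a median of 0.38. Tnf lost its call in 8 of 12 fits without 1 library (up to 0.108, without KT replicate 2), Csf1 in 4 (up to 0.0737, without KT replicate 3) and Il1b without KT replicate 2 (0.0667). Tnfaip3, a brake on NF-kB, rose from 22.3, 33.2, 27.1 and 28.9 CPM to 164, 97.1, 123, 65.4 and 79.1 CPM (1.92 ± 0.36, adjusted p = 0.00575). Lcn2, which encodes lipocalin 2, fell from 1210, 396, 503 and 773 CPM to 210, 162, 111, 80.6 and 94.7 CPM (-2.45 ± 0.42, adjusted p = 0.00351). In the IL-6 family list 3 of 12 rose (Lif, Clcf1 and Bcl3, the last with its call lost in 3 fits, up to 0.0976). Of 17 tested TGF-beta response and matrix protease genes 5 rose (3 without KT replicate 2 or 3) and 2 fell (median 0.31), and of 15 YAP and TEAD targets 4 rose (1 without KT replicate 1, 2 or 3 or sgSik1 replicate 1) and 1 fell (median 0.73).

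Markers of other cells that the sort was meant to remove were mixed. Of 9 tested leukocyte markers 5 fell (3 without KT replicate 1, 2 or 3) and 0 rose. Against that direction, Cd53, a tetraspanin gene, stood at 3.40 to 7.30 CPM in KT and 12.5 to 144 CPM in Sik-targeted libraries without passing (3.75 ± 1.25, adjusted p = 0.0642). Rac2, which encodes a small GTPase, stood at 0.849 to 4.72 CPM and 4.72 to 25.9 CPM (1.92 ± 0.72, adjusted p = 0.0915). Neither gene overlapped between the groups. Tyrobp, an adaptor of myeloid cells, had 165 counts in KT and 0 in the Sik-targeted libraries, whereas Lcp1, an actin-bundling gene on the same list, stood at 127 to 210 CPM in KT and 85.3 to 167 CPM in Sik-targeted libraries and did not pass. T and NK cell markers summed to 1.1 to 11.2 CPM in KT and 0 to 0.491 CPM in Sik-targeted libraries, and the neutrophil markers S100a8 and S100a9 had 11 and 3 counts in KT and 0 in the Sik-targeted libraries. The B cell marker Ms4a1 had 6 counts in KT and 0 in the Sik-targeted libraries. Of 14 tested endothelial markers 1 fell (Esam, a call lost in 9 fits, up to 0.12), and Pecam1, at 1.57 to 8.70 CPM in KT and 4.56 to 9.05 CPM in Sik-targeted libraries, did not pass (0.15, adjusted p = 0.938).

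**Figure D4:**
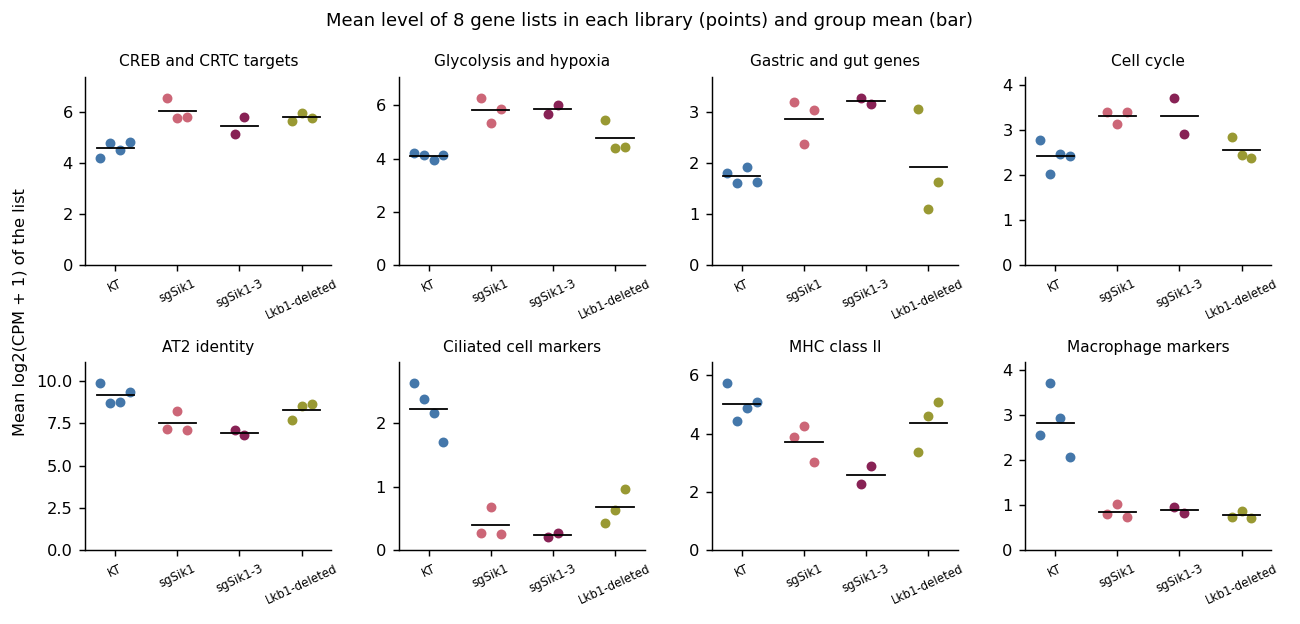
Mean log2(CPM + 1) (y axis) of the members of 8 gene lists, tested or not, in each library (points), with the group mean as a bar, for KT, sgSik1, sgSik1-3 and Lkb1-deleted tumours. CREB targets and glycolysis genes lie above every KT library in all 5 Sik-targeted libraries, and ciliated and macrophage markers lie below.

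The guide titles were then taken apart in a fit of 4 title groups. Against KT, 588 of 15303 genes (3.84%) differed in sgSik1 cells, 415 higher (2.71%) and 173 lower (1.13%), and 443 (2.89%) differed in sgSik1-3 cells, 267 higher (1.74%) and 176 lower (1.15%). The difference between the titles was tested directly: 0 genes passed by edgeR (528 at an unadjusted p under 0.05, 3.45% of those tested), 6 by DESeq2 and 44 by edgeR without a filter on low counts. With 2 sgSik1-3 libraries, and with sex also differing between the titles, a guide effect cannot be told apart from that of sex. The same holds for the genes called between sgSik1-3 and KT cells. Of the CREB targets 15 passed in sgSik1 (median 2.11) and 3 in sgSik1-3 (median 1.20), and of the glycolysis and hypoxia genes 13 and 8 (medians 1.62 and 1.65). Both comparisons use the same KT libraries. Stc1 rose by 6.63 in sgSik1 and 6.61 in sgSik1-3, Nr4a2 by 3.25 and 2.62, Areg by 2.19 and 2.29, and Car9 by 4.63 and 5.38.

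Sik-targeted cells were also set against cells with Lkb1 deleted, the kinase upstream of SIKs. The Lkb1-deleted titles name no Cas9 or guides, so here too effects of these cannot be told apart from those of Sik targeting. By edgeR 30 of 13575 genes (0.221%) differed, 14 higher (0.103%) and 16 lower (0.118%) in Lkb1-deleted cells. Carbonic anhydrase gene Car9 was lower in the 3 Lkb1-deleted libraries, at 0.121, 0.617 and 1.47 CPM, than in any Sik-targeted library (-6.40 ± 0.73, adjusted p = 0.00274), and those 3 values lay in or below the KT range. The desmosome gene Pkp1 stood at 21.6 to 102 CPM in Sik-targeted libraries and at 3.28, 0.103 and 0.184 CPM in Lkb1-deleted libraries (-5.99 ± 0.93, adjusted p = 0.0182). In KT it had 59 counts summed over all libraries, a raw sum that is not on the CPM scale. Also lower after Lkb1 deletion than after Sik targeting were the sodium channel gene Scn8a (-6.36 ± 1.06), Muc3 (-6.85 ± 1.17) and the drug transporter gene Abcb1b (-5.27 ± 0.81). These 5 were chosen among genes also called between Sik-targeted and KT cells, where they had risen. Both comparisons use the same Sik-targeted libraries, so this choice favours genes with opposite directions in them. Without Lkb1-deleted replicate 3 only 5 genes differed (2 higher and 3 lower), 8 differed without KT replicate 2, 271 without sgSik1 replicate 2 and 710 without Lkb1-deleted replicate 1. Car9 kept its call in all 12 fits without 1 library, whereas Pkp1, Scn8a, Muc3 and Abcb1b lost theirs in 2, 7, 6 and 2 (up to 0.0707, 0.144, 0.151 and 0.0987). With the replicate number as a block 10 genes differed, and Muc3 and Abcb1b were not among them (both 0.0552).

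In the other direction, 5 genes chosen in the same way were higher in Lkb1-deleted than in Sik-targeted cells. These 5 had fallen in Sik-targeted cells against KT, a pattern that the choice again favours. The thrombospondin gene Thbs3 had 25.2, 21.8, 24.3 and 25 CPM in KT libraries, then 5.4, 7.12, 2.51, 2.36 and 4.89 CPM in Sik-targeted and 18.6, 26 and 52.7 CPM in Lkb1-deleted libraries (Lkb1-deleted minus Sik-targeted 2.87 ± 0.42, adjusted p = 0.00911). The ceruloplasmin gene Cp (2.84 ± 0.49), the potassium channel gene Kcnj13 (3.47 ± 0.59), the glutamate transporter gene Slc1a3 (3.65 ± 0.68) and Bex2 (3.38 ± 0.66, adjusted p = 0.0495) were also higher in Lkb1-deleted cells. Thbs3 lost its call without Lkb1-deleted replicate 3 (0.0707), and Cp, Kcnj13, Slc1a3 and Bex2 lost theirs in 7, 8, 9 and 9 fits (up to 0.144, 0.11, 0.166 and 0.209). Nr4a2 and Stc1 did not pass this test between the genotypes, which does not show that they are alike. Nr4a2 stood at 107, 100 and 81.7 CPM in Lkb1-deleted libraries (0.57 ± 0.37, adjusted p = 0.551). Stc1 stood at 230, 88.2 and 86.3 CPM (-1.17 ± 0.44, adjusted p = 0.278), with replicates 2 and 3 below every Sik-targeted library. Other genes named above did pass the test: Mixl1 (adjusted p = 0.00805), Ros1 and Hmga2 (both 0.0321) and Spry1 (0.0267). Mixl1 kept its call in all 12 fits without 1 library, whereas Ros1, Hmga2 and Spry1 lost theirs in 7, 9 and 7. No CREB target and 2 of 28 glycolysis and hypoxia genes (Car9 and Stc2, the latter with its call lost in 10 fits) were among the 30. With 0.221% of all tested genes called, such counts do not show that the genotypes are alike for these lists. The mean log2(CPM + 1) of the glycolysis list was 5.45, 4.41 and 4.43 in Lkb1-deleted replicates 1 to 3. It was 5.34 to 6.28 in Sik-targeted libraries and 3.95 to 4.21 in KT.

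Lkb1-deleted replicate 1 resembled the Sik-targeted libraries while replicates 2 and 3 lay near KT, for the gastric genes and more widely. Multidimensional scaling places libraries by likeness of expression. On its first axis (39.69% of variance) Lkb1-deleted replicates 1 to 3 lay at 1.98, -1.78 and -1.17. KT lay at -1.86 to -1.63 and the Sik-targeted libraries at 1.81 to 1.99, except sgSik1 replicate 2 at 0.245. Tff1 stood at 447, 0.514 and 3.67 CPM in Lkb1-deleted replicates 1 to 3, Dpcr1 at 1237, 3.4 and 20.6 CPM, Mcpt1 at 4021, 2.16 and 8.45 CPM and Hnf4a at 195, 3.81 and 1.65 CPM. None of these 4 passed between Lkb1-deleted and Sik-targeted cells (adjusted p = 0.54, 0.54, 0.963 and 0.818), which with such a spread does not show that they are alike. Y-linked counts summed to 0.364 CPM in Lkb1-deleted replicate 1 and to 70.6 and 49.95 CPM in replicates 2 and 3, so sex moved with this split, and its part was not tested. For Sftpc the same replicate had 537 CPM and the other two 19255 and 18746 CPM.

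**Figure D5:**
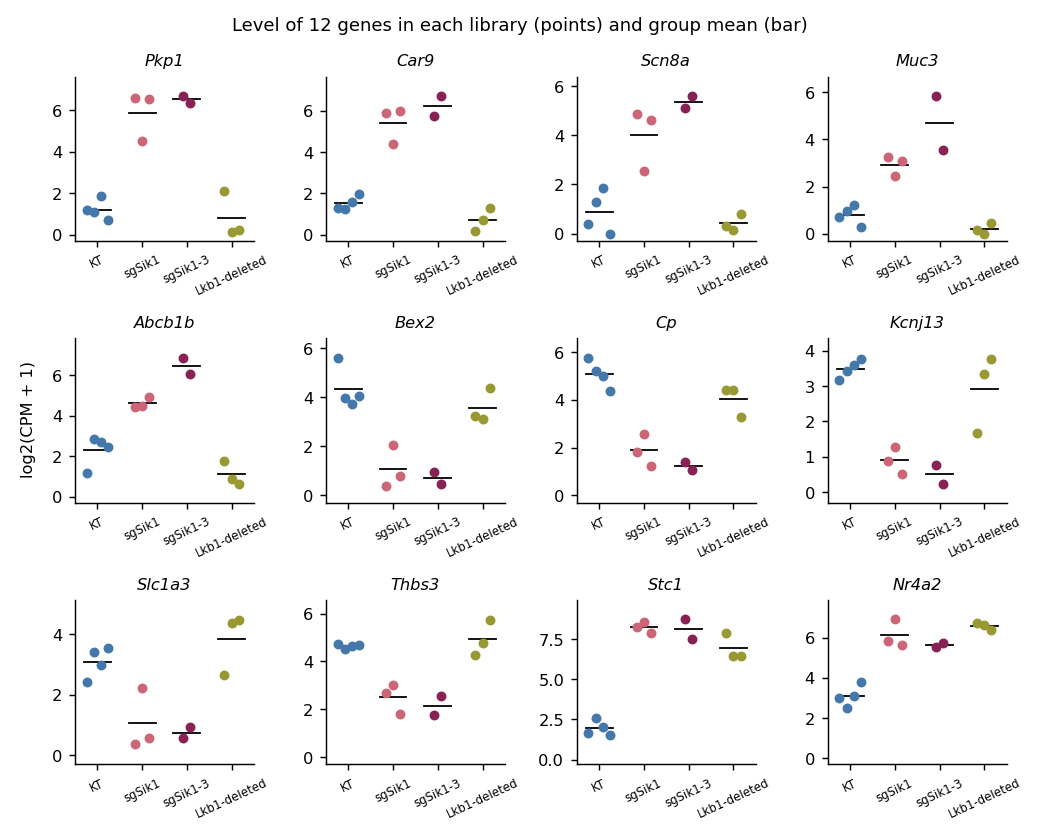
Level of 12 genes as log2(CPM + 1) (y axis) in each KT, sgSik1, sgSik1-3 and Lkb1-deleted library (points), with the group mean as a bar. Pkp1, Car9, Scn8a, Muc3 and Abcb1b are highest in Sik-targeted libraries, Bex2, Cp, Kcnj13, Slc1a3 and Thbs3 are lowest in them, and Stc1 and Nr4a2 are above KT in both genotypes.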

How the data were processed

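RNA from sorted tumour cells was sequenced in 12 libraries. Per the labels' protocols, tumours were dissociated enzymatically (collagenase IV, dispase, trypsin) at 37 degrees for 30 minutes. The authors deposited raw read counts per gene symbol. STAR 2.4.2a, HTSeq and mm10 are named in the submitters' processing notes; annotation and strandedness: not given in the sources used here. Thus overlapping and antisense genes cannot be told apart.

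Differences were tested by edgeR 4.0.16 under R 4.3.3 (TMM normalization, the default filter on low counts, robust quasi-likelihood fit, Benjamini-Hochberg threshold 0.05) on all 12 libraries in 3 genotype groups, which share 1 estimate of the spread; guide titles were tested in 4 title groups. Standard errors are the log2 change divided by the square root of F. The test was checked on simulated data. Alternatives used DESeq2 1.42.0 and limma 3.58.1, other filters and normalization, a replicate block and libraries left out.

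Named genes were the list anchors, the 15 largest changes per direction (mean of at least 2 CPM, no overlap), the 10 most abundant per direction and up to 5 members per list with the smallest p. Added to these were up to 5 genes per direction with the largest differences between Lkb1-deleted and Sik-targeted cells. They had no overlap between those 2 groups and were also called between Sik-targeted and KT cells. List members named only to complete a count, among them Il33, Tnf, Lcp1, Cd53 and Rac2, were chosen after their values were seen. Some genes are not reported here. The comparison, members and all 53 lists were chosen with earlier results of these data known. Of 30743 symbols, 20855 matched RefSeq directly and 2194 by an older symbol.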

Additional observations from a re-analysis of the deposited data

Results flagged for a closer look

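Among the genes named above, 36 of 395 gene and group combinations had 1 library whose gap to the nearest other, on the log2(CPM + 1) scale, exceeded Dixon's 95% limit for its group; chance alone flags about 1 in 20 of groups with continuous values. In 7 of the 36 (Batf, Bcl2a1a, Il1b, Marco, Tff3, Upk3b and Wt1) the highest library held 3 counts or fewer and most or all others 0, so these say nothing of an unusual library. Values are CPM, with the range of the other libraries of the same group in brackets. KT replicate 1 was the highest for Bcl3 at 22.2 (10.4 to 11), Bex2 at 47.8 (12.3 to 15.5), Cdk1 at 2.83 (1.12 to 1.27) and Foxj1 at 14.3 (2.89 to 3.87). KT replicate 1 was also the highest for Tff2 at 2.67 (0 to 0.0803). KT replicate 1 was the lowest for Csf1 at 0.472 (4.69 to 6.5), Zeb1 at 0.629 (7.85 to 10.2) and Zeb2 at 3.62 (22.4 to 25.4). KT replicate 3 was the highest for Itgb4 at 33.1 (11.2 to 13.2). KT replicate 4 was the highest for Foxp1 at 204 (121 to 130), Hbegf at 80 (41.3 to 45.9), Hdac4 at 24 (14.5 to 15.5) and Ldha at 550 (289 to 318). sgSik1-3 replicate 1 was the highest for Batf at 0.236 (0 to 0.0546), Gkn3 at 7.8 (0 to 0.327), Marco at 0.236 (0 to 0.0546) and Tff3 at 0.236 (0 in the others). sgSik1-3 replicate 1 was also the highest for Wt1 at 0.236 (0 in the others). sgSik1 replicate 1 was the highest for Abca3 at 432 (149 to 198), Bag3 at 284 (65 to 82.9), Bcl3 at 207 (19.6 to 39), Crtc1 at 32.1 (8.33 to 11) and Egr1 at 13833 (3533 to 4028). sgSik1 replicate 1 was also the highest for Fasn at 2917 (388 to 616), Foxa2 at 54 (14.7 to 17.4), Gata6 at 94.9 (34.7 to 43.2) and Muc1 at 1978 (507 to 713). sgSik1 replicate 1 was also the highest for Upk3b at 0.284 (0 in the others). sgSik1 replicate 2 was the highest for Bcl2a1a at 0.427 (0 in the others), Etv5 at 91.1 (44.5 to 51.4), Nlrc5 at 1.14 (0 to 0.236) and Nr4a2 at 119 (46.3 to 56.6). sgSik1 replicate 2 was also the highest for Sftpa1 at 3502 (86.4 to 191). sgSik1 replicate 2 was the lowest for Pkp1 at 21.6 (81.4 to 102). sgSik1 replicate 3 was the highest for Il1b at 0.164 (0 in the others) and Pdpn at 6.11 (2.14 to 2.84).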

How the results depend on the processing

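All 1679 genes called between Sik-targeted and KT cells kept their direction in every alternative that tested them, but how many passed depended on the libraries. Leaving out 1 library at a time gave 577 to 2655 calls, fewest without KT replicate 2 and most without Lkb1-deleted replicate 1. Without KT replicates 2 and 3 there were 98 (37 higher), without these and sgSik1 replicate 1 102 (46 higher), and with sgSik1 as the only Sik-targeted group 448 (279 higher). No filter on low counts gave 3654 (1235 higher), limma-voom with quality weights 4172 (1792 higher), and DESeq2 2442 (1152 higher, with a median change of -0.58). Of the 153 genes named as risen or fallen, 81 were called in every fit without 1 library, and 34 of 152 tested were called without KT replicates 2 and 3.

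For sgSik1 against KT the count was 1397 by DESeq2, 1783 without a filter, 1 without KT replicates 2 and 3, and 134 to 1269 without 1 library. For sgSik1-3 against KT it was 1245, 1440, 11, and 52 to 1127. Between the guide titles it was 6 by DESeq2, 44 without a filter and 0 to 4 without 1 library. Between Lkb1-deleted and Sik-targeted cells it was 325 by DESeq2, 698 without a filter and 5 to 710 without 1 library. The share of risen genes with the full element in a promoter window was 9.09% without KT replicates 2 and 3 and 7.41% without these and sgSik1 replicate 1. It was 5.76% with sgSik1 alone and 3.03 to 5.58% without 1 library. The cause was not tested.

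Same-numbered KT and Sik-targeted libraries had correlations of deviations of -0.02 to 0.14. Pairs of an Lkb1-deleted library with another genotype had -0.09 to 0.26 at the same number and -0.33 to 0.21 at different numbers. The main fits took the numbers as names of samples only, and whether they mark a shared factor was not settled. With the number as a replicate block the counts were 1050 (427 higher) for Sik-targeted against KT, 254 for sgSik1, 126 for sgSik1-3 and 10 for Lkb1-deleted against Sik-targeted cells.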
